A study of Mus musculus with 2 samples.

Results

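MicroRNA precursor genes were examined in LPS-stimulated mouse macrophages with and without tristetraprolin (TTP, gene Zfp36), an RNA-binding protein that destabilizes mRNAs. The members were chosen by symbol (Mir or Mirlet followed by a digit, host transcripts whose symbol ends in hg left out) and by a mean of at least 1 FPKM (fragments per kilobase of gene and per size of the library) over both libraries, so the level of each gene in these same libraries decided whether it was included. Of the 37451 genes listed, 663 carried such a symbol and 126 of them reached the minimum. Of the others, 535 were listed at 0 in both libraries and 2 were above 0 but under the minimum. Just inside stood Mir1249 at 5.15 FPKM in WT and 0 in ΔM, Mir1196 at 5.14 and 0, and a row named Mir30d at 1.76 and 1.67. Just outside stood Mir5114 at 0.86 and 0, Mir706 at 0.11 and 0.13, and Mir705 at 0 in both.

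Bone marrow-derived macrophages (BMDMs) came from C57BL/6 mice, either WT or TTPΔM littermates aged 7 to 9 weeks, and were grown in L929-derived CSF-1. In TTPΔM mice LysMcre, in which the lysozyme M locus drives Cre, deletes the floxed Zfp36 gene in myeloid cells. Cells of both genotypes were cultured with 100 µM 4-thiouridine for 16 h and given 10 ng/ml LPS for 6 h. Total RNA was depleted of ribosomal RNA, fragmented and sequenced from 1 library per genotype, so the data hold no replicate error (how many mice gave cells to a library is not given in the sources used here) and no test of genotype was possible. In bulk RNA, fewer cells of a type and less RNA per cell cannot be told apart.

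Zfp36 stood at 65.3 FPKM in the WT library and 16.7 in the ΔM library. Macrophage markers were present in both libraries, with Csf1r, the CSF-1 receptor, at 104 and 119 FPKM and Emr1, which encodes F4/80, at 380 and 357 FPKM (WT and ΔM, as in all pairs that follow). Itgam was at 223 and 200 FPKM, Cd68 at 388 and 390, and Cd14, the LPS co-receptor, at 117 and 110. Lyz2, the gene of the lysozyme M locus that carries the Cre, was at 2481 and 1356 FPKM. The T cell gene Cd3e and the neutrophil gene Ly6g were at 0 in both, and the progenitor gene Flt3 was at 0.04 and 0. The WT library was 1.13 times as deep as the ΔM library, as read from the FPKM value of 1 fragment.

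MicroRNAs are cut from hairpins within longer primary transcripts, first by the nuclear Drosha and Dgcr8 complex and then, after export by Xpo5, by Dicer1. One strand of the duplex is loaded onto an Argonaute protein and pairs with mRNAs mainly through its seed, the bases that follow the first base of its 5′ end. In macrophages, miR-155, miR-146a and miR-125b are known for their part in Toll-like receptor signaling, miR-223 and miR-142 for their expression in blood cells, and let-7 for the repression of genes of growth and of inflammation. The annotated unit counted here was the hairpin gene, so the values count fragments assigned to its position and do not measure the mature microRNA. Which RNA gave those fragments was not tested.

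The mature sequences below (RefSeq, GRCm38.p6) are shown because the values described further on turn on these families. Each was found, letter for letter, inside the mm9 position of the member named, and capitals mark the seed, bases 2 to 8 from the 5′ end. A mature sequence was found within 108 of the 124 hairpin genes, and 106 of these 108 also matched an entry by symbol. The let-7 family shares the seed GAGGUAG, and each of its 9 members had a higher value in the ΔM library. Of these, Mirlet7f-2 was at 0 in WT and had to be higher.
let-7a-5p (Mirlet7a-1 and Mirlet7a-2): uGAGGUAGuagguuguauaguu
let-7b-5p (Mirlet7b): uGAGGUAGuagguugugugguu
let-7c-5p (Mirlet7c-1 and Mirlet7c-2): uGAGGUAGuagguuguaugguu
let-7d-5p (Mirlet7d): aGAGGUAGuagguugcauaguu
let-7f-5p (Mirlet7f-2): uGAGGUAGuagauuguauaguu
let-7g-5p (Mirlet7g): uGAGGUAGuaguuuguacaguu
let-7i-5p (Mirlet7i): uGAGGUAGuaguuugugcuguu
The pair miR-221 and miR-222, which repress the cell cycle inhibitor p27, had the most fragments of the families named here and shares the seed GCUACAU.
miR-221-3p (Mir221): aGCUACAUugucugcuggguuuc
miR-222-3p (Mir222): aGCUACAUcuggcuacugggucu
The products of the miR-23, miR-27 and miR-24 clusters are shown because neighbouring hairpins had values on opposite sides, those of miR-27 within counting error. The seed is UCACAUU in miR-23a and UCACAGU in miR-27.
miR-23a-3p (Mir23a): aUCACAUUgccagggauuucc
miR-27a-3p (Mir27a): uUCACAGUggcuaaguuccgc
miR-27b-3p (Mir27b): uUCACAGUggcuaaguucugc
The miR-125 family, with the seed CCCUGAG, and miR-155 are shown as microRNAs of the response to LPS.
miR-125a-5p (Mir125a): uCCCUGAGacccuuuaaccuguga
miR-125b-5p (Mir125b-1 and Mir125b-2): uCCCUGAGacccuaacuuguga
miR-155-5p (Mir155): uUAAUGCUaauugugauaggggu

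Of the 126 members, 124 were hairpin genes of 57 to 132 nt with a median of 86 nt. The remaining 2 rows were long transcripts under a microRNA symbol, Mir155 (a row of 2220 nt, at 7.03 FPKM in WT and 5.16 in ΔM) and Mir30d (22194 nt, at 1.76 and 1.67). The cDNA was size-selected at 200 to 300 nt, adaptor sequence included, and the part of it that was adaptor is not given in the sources used here. Every hairpin gene was therefore shorter than the selected cDNA, and most of the FPKM values stood for few fragments. FPKM values of such short genes came in whole steps, each step being the value of 1 fragment at that gene length. In the WT library 1 fragment was worth 39.0 FPKM at 65 nt, 20.3 FPKM at 79 nt, 7.36 FPKM at 107 nt and 3.62 FPKM at 132 nt, and in the ΔM library each step was 1.13 times as large. Among short genes of these lengths, 94.6% of the WT values and 95.4% of the ΔM values up to 40 fragments were whole multiples within 0.05 of a fragment, where evenly spread values would give 10%.

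Of the 124 hairpin genes 109 were whole in both libraries. Of the 15 that were not, 13 shared bases with an annotated exon of another gene, where fragments can be divided between both genes. Mir30d lay inside the long row of the same name, and Mir5105 had so many fragments that the rounding of the step exceeded the tolerance. Counted in this way and rounded to whole fragments in each library, 43 hairpin genes rested on at most 1 fragment in both libraries together, 46 on 2 to 9, 18 on 10 to 29 and 17 on 30 or more. At each of these lengths a single fragment in 1 library was enough to pass the minimum.

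**Figure D1:**
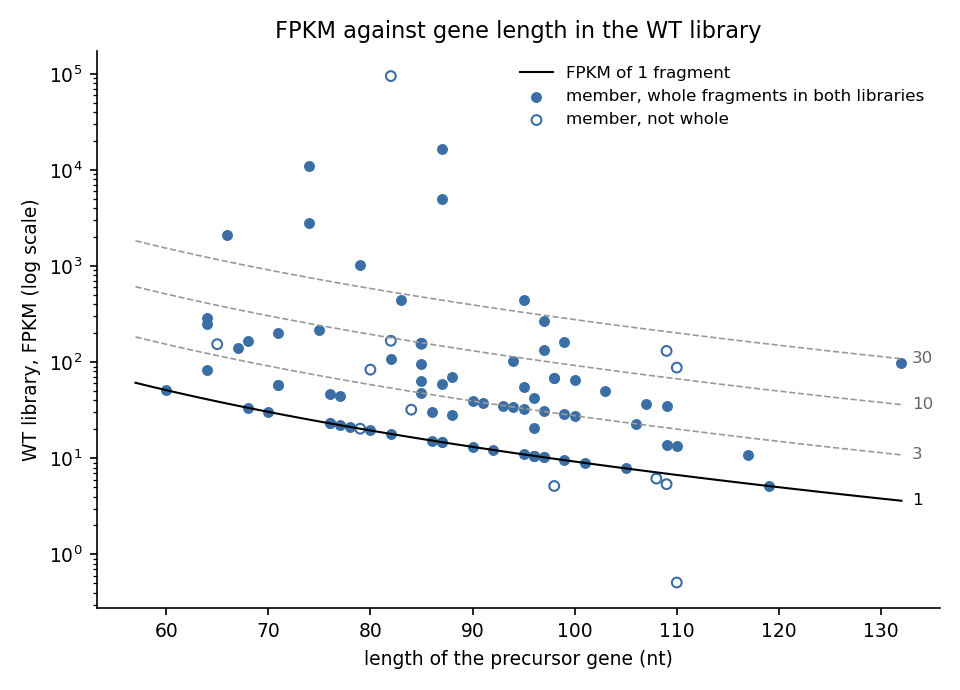
FPKM in the WT library (log scale) against the length of the hairpin gene in nt, for members above 0 in that library. The solid line is the FPKM of 1 fragment and the dashed lines are those of 3, 10 and 30 fragments; filled points are whole numbers of fragments in both libraries, and open points are not. Many members sit on the line of 1 fragment, which falls from 39.0 FPKM at 65 nt to 3.62 FPKM at 132 nt.

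At a difference of at least 2-fold on the log2(FPKM + 1) scale, 59 of 126 members (46.8%) were higher in the ΔM library and 32 (25.4%) were lower. The same rule took 5.69% and 3.61% of all 10765 genes at or above 1 FPKM, and 26.5% and 17.6% of the 1068 other genes of the same lengths. Of the hairpin genes, 33 were listed at 0 in WT and 23 at 0 in ΔM. Such a gene entered only through the library in which it was high and had to differ, so these counts say little about the members. The median log2 ratio of ΔM to WT was 0.56 over the members, with a 95% binomial interval over genes of 0.17 to 1.26. That interval takes genes of the same libraries as independent and is not a replicate error. The median was 0.03 over all genes and 0.32 over the other genes of the same lengths. Genes listed at 0 in 1 library were also placed at the floor that a count of 0 allows, 3 fragments. They were given no difference where the other library did not exceed that floor. The median over the members was then 0.00. By this rule most genes listed at 0 took a ratio of 0, so the median lies among ties and does not measure the lean of the other members.

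**Figure D2:**
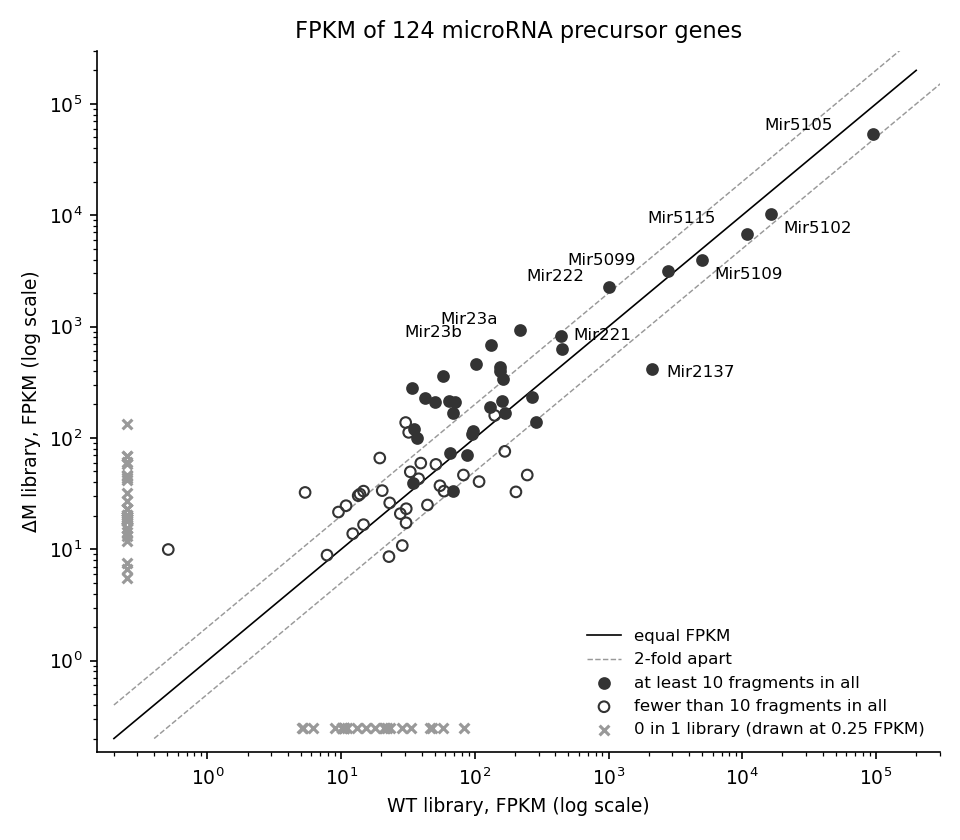
FPKM of the 124 hairpin genes in the WT library (x axis) and the ΔM library (y axis), both on log scales, with the line of equal FPKM and dashed lines at 2-fold. Filled points rest on at least 10 fragments in both libraries together (35 genes), open points on fewer, and crosses mark genes listed at 0 in 1 library (56 genes), drawn at 0.25 FPKM. Of the 5 highest genes 4 lie below the line and Mir5099 lies above it, and most of the lower filled points lie above it.

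Of the 35 hairpin genes with at least 10 fragments, 26 were higher and 9 lower in the ΔM library, with a median log2 ratio of 0.53. Among 557 other genes of the same lengths with at least 10 fragments, 427 were higher and 130 lower, with a median of 0.39. At least 2-fold differences were seen for 16 of the 35 upward (45.7%, against 15.6% of the other short genes) and 3 downward (8.57% against 3.59%). The 95% Poisson intervals of both libraries did not overlap for 8 genes that were higher in ΔM (22.9%, against 19.2%) and for 4 that were lower (11.4%, against 0.898%). Genes annotated as miRNA under other symbols, a part of those short genes, did not share their upward lean: of 17 with at least 10 fragments 7 were higher and 10 lower, with a median log2 ratio of -0.10, and the intervals were apart for 4 that were lower (23.5%) and for 0 that were higher (0%). These 4 were among the 5 lower calls of the other short genes. Genes higher with separate intervals were Mir222, Mir221, Mir23a, Mir23b, Mirlet7c-1, Mirlet7a-1, Mirlet7a-2 and Mirlet7d, and those lower were Mir5105, Mir5102, Mir5115 and Mir2137. These intervals cover counting error only, and amplified reads are not independent molecules. Small nucleolar RNA genes of the same lengths, which guide the modification of ribosomal RNA, summed to 1.36 times as much FPKM in ΔM as in WT, and small nuclear RNA genes, which belong to the splicing machinery, to 1.80 times as much. The part in the members' differences of what moved these other short genes was not tested.

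**Figure D3:**
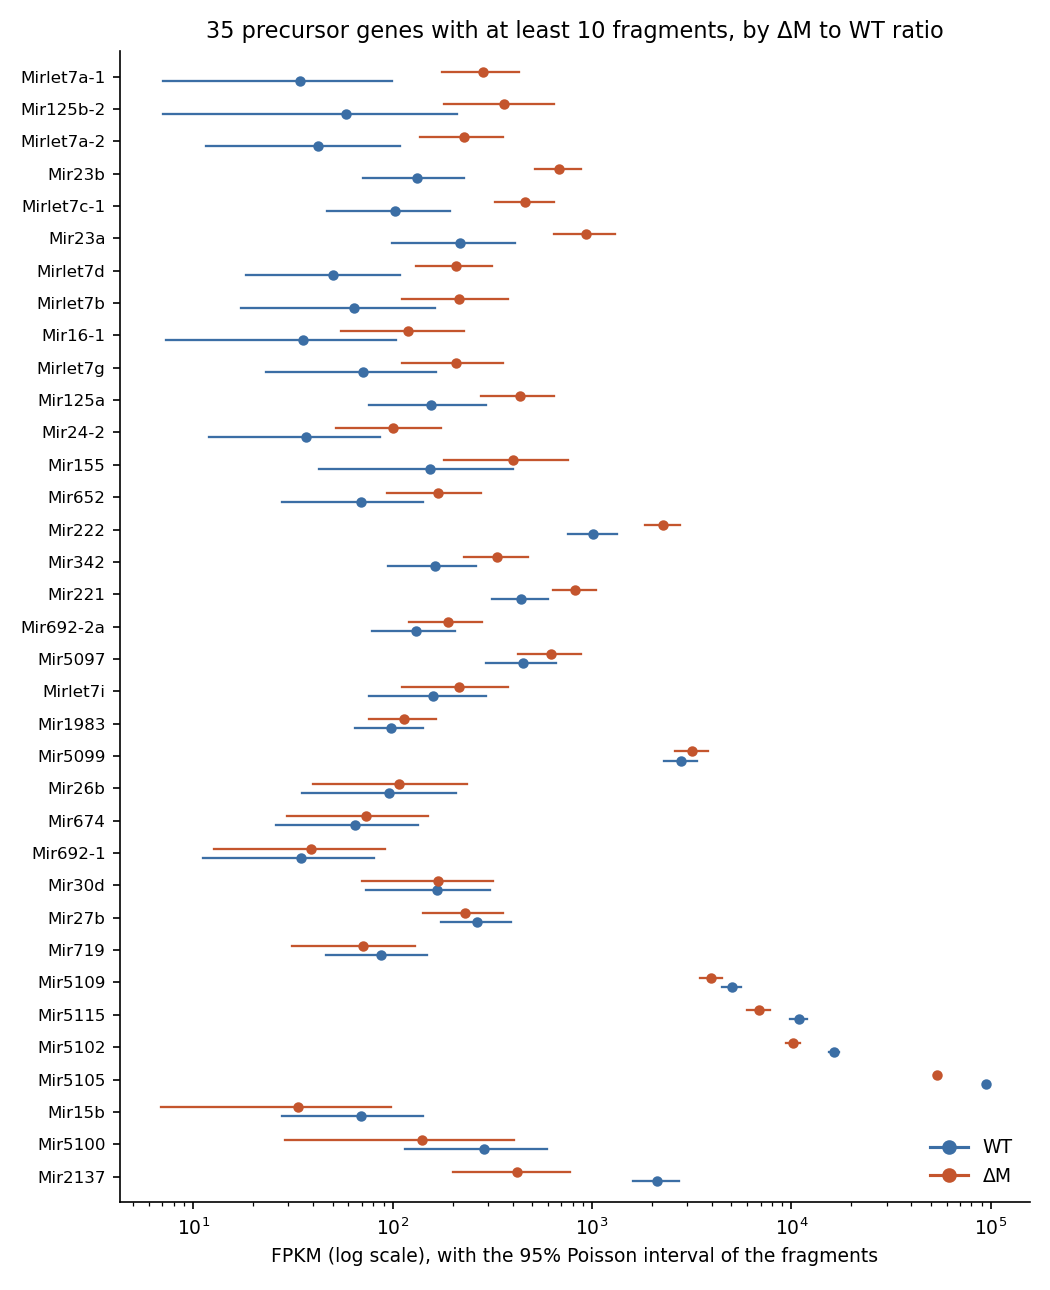
FPKM (log scale) of the 35 hairpin genes with at least 10 fragments in both libraries together, ordered by the ratio of ΔM to WT, with WT in blue and ΔM in orange. Bars are 95% Poisson intervals of the fragments, converted to FPKM. From Mirlet7a-1 at the top to Mir2137 at the bottom, the intervals are apart for 8 genes higher and 4 genes lower in ΔM.

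All 9 let-7 genes in the table were members, and each was higher in the ΔM library, as were 716 of 1068 other genes of the same lengths. Mirlet7f-2, at 0 in WT, had entered only through the ΔM library and had to be higher. Mirlet7c-1 (chr16:77599902-77599995, mm9, plus strand) was at 102 FPKM (WT) and 463 FPKM (ΔM), from 9 and 36 fragments. Mirlet7a-1 (chr13:48633548-48633641, minus strand) had 34.1 and 283 FPKM, from 3 and 22 fragments, a log2 ratio of 3.02. Mirlet7d, 2261 nt from end to end with Mirlet7a-1 on the same strand, had 50.2 and 208 FPKM from 6 and 22 fragments. In these 3 genes, and in Mirlet7a-2 with 4 and 19 fragments, the intervals of both libraries were apart. The intervals of the other 5 overlapped. Mirlet7b had 63.6 and 216 FPKM from 4 and 12 fragments. Mirlet7g, in an intron of Wdr82, had 70.9 and 208 FPKM from 5 and 13 fragments. Mirlet7i had 159 and 216 FPKM from 10 and 12 fragments, the smallest ratio of the family at a log2 of 0.44. Mirlet7c-2 had 3 and 4 fragments, and Mirlet7f-2, in an intron of the ubiquitin ligase gene Huwe1, had 0 and 3. Over the family 44 fragments in WT stood against 143 in ΔM, a depth-scaled fold of 3.68 (95% interval of the split of fragments 2.60 to 5.28), beside a fold of 1.40 for the summed FPKM of all other genes of the same lengths. The family was singled out after its values were seen, and no genotype test bears on it.

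Lin28a and Lin28b, whose proteins block the maturation of let-7, were near 0 in both libraries, at 0.14 and 0.01 FPKM and at 0.03 and 0.07 FPKM. Copies of let-7 carry near-identical sequence. By the mature sequences at hand, 25 hairpin genes contained a mature sequence that another gene also has, and since uniquely mapped reads were kept, the division of reads among such copies is uncertain.

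Mir222 (chrX:18724019-18724097, minus strand) and Mir221 (chrX:18723420-18723514, minus strand) lie within 678 nt and had the most fragments of any members outside the 5 highest. Mir222 was at 1015 FPKM (WT) and 2273 FPKM (ΔM), from 50 and 99 fragments. Mir221 was at 439 and 819 FPKM, from 40 and 66 fragments. Both were higher in ΔM with intervals apart, and together their fold was 2.07 (1.59 to 2.71).

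The miR-23, miR-27 and miR-24 hairpins occur in 2 clusters. In each, the miR-27 hairpin had a lower value in ΔM beside higher values of its neighbours. The fold interval of Mir27a (0.05 to 3.95), like that of Mir27b, included 1. Mir23a (chr8:86732417-86732491, plus strand) was at 217 FPKM (WT) and 928 FPKM (ΔM), from 9 and 34 fragments. Mir27a, next to it, was at 58.9 and 33.3 FPKM, from 4 and 2 fragments with overlapping intervals, and Mir24-2 was at 36.8 and 99.9 FPKM, from 5 and 12. In the second cluster, Mir23b (chr13:63401780-63401876, plus strand) was at 133 and 683 FPKM, from 13 and 59 fragments. Mir27b, which begins within the 325 nt that both span, was at 266 and 232 FPKM, from 26 and 20 fragments. Mir23b was thus higher in ΔM with intervals apart, while the intervals of Mir27b overlapped and its fold of 0.87 had an interval of 0.46 to 1.62. Summed over each cluster, 18 fragments stood against 48 at the first (fold 3.02, 1.72 to 5.51) and 39 against 79 at the second (fold 2.29, 1.54 to 3.45).

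Counting every microRNA gene of the table within 10 kb on a strand as 1 cluster, 15 clusters held at least 2 members. The interval of the depth-scaled fold lay above 1 for 8 of them and included 1 for the other 7. None of the 15 had an interval below 1. Other genes of the same lengths were not grouped in this way, so the 8 have no matching share. The summed FPKM of other genes of the same lengths also leaned upward, with a fold of 1.40. The intervals at Mirlet7c-2 and Mirlet7b (from 1.01), at Mir25 with its neighbours, and at Mir99b and Mir125a began under that value. In 3 of the 8 a member was listed at 0 in WT and had entered only through the ΔM library. The widest intervals came from small counts, as at Mir25, Mir93 and Mir106b inside the replication gene Mcm7 with 1.9 and 9 fragments (fold 5.26, 1.05 to 48.4), where Mir93 and Mir106b were at 0 in WT and Mir25 alone had an interval of 0.61 to 34.4. Mir99b and Mir125a, hairpins of 1 primary transcript, had 9.8 and 26.1 fragments (fold 3.02, 1.37 to 6.83). Mir99a and Mirlet7c-1 had 9 and 39 fragments (fold 4.90, 2.33 to 11.5). Mir15b and Mir16-2, inside the condensin gene Smc4, had 12 and 6 fragments (fold 0.57, 0.17 to 1.63). Mir17 and Mir92-1 were the only members among the 6 hairpins of their cluster, which is known for its part in cell proliferation, with 4.3 fragments in WT and 1 in ΔM.

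The 5 highest members held most of the summed FPKM. The sum over all members was 138687 FPKM (WT) and 90957 FPKM (ΔM), a fold of 0.66, and these 5 made up 93.5% and 85.7% of it. Without them the sums were 9025 and 13045 FPKM, a fold of 1.45 in the opposite direction, beside 1.40 for the other genes of the same lengths. Mir5105 (chr5:147072579-147072660, plus strand) was at 94679 and 53702 FPKM, from 5279 and 2648 fragments. It lay in an intron of Cdk8, which was at 0.67 and 1.13 FPKM. Mir5102 (chr7:137977951-137978037, plus strand) was at 16314 and 10223 FPKM, and Mir5115 (chr2:72850911-72850984, minus strand) at 10885 and 6854 FPKM, neither of them inside a longer gene row annotated on the same strand. All 3 were lower in ΔM with log2 ratios of -0.82, -0.67 and -0.67. Mir5109 was at 5006 and 3963 FPKM with overlapping intervals, and Mir5099 at 2778 and 3170 FPKM. Whether the fragments at these 5 positions came from a hairpin transcript or from other abundant RNA of the same sequence was not tested.

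Mir2137 (chrX:70237418-70237483, plus strand) was at 2112 FPKM (WT) and 419 FPKM (ΔM), from 57 and 10 fragments, the lowest ratio among members with at least 10 fragments (log2 ratio -2.33). It lay in an intron of Zfp185, which was at 0 and 0.01 FPKM. The other named members with low ratios rested on few fragments. Mir3963 had 7 in WT and 1 in ΔM, Mir720 had 6 and 1, Mir320 had 6 and 2, Mir351 had 3 and 1, and Mir181c had 3 and 1. Among the 6 largest ratios of members above 0 in both libraries, beside let-7 and Mir23b, Mir125b-2 had 2 and 11 fragments, Mir223 0.51 and 9.96 FPKM, and Mir686 5.38 and 32.4 FPKM inside an exon of the proteasome gene Psmb5.

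Of genes listed at 0 in 1 library, Mir99a stood at 132 FPKM in ΔM from 3 fragments, Mir5119 at 69.0 FPKM from 1, Mir99b at 68.8 FPKM from 2 and Mir1963 at 61.3 FPKM from 1. In the opposite direction, Mir92-1 stood at 83.6 FPKM in WT from 4.29 fragments, Mir186 at 58.0 FPKM from 2, Mir425 at 47.7 FPKM from 3, Mir181a-2 at 46.2 FPKM from 2 and Mir139 at 33.5 FPKM from 1. At these lengths none of the differences of 1 to 3 fragments was detectable. Mir501, with a lower FPKM, had 0 fragments in WT and 6 in ΔM (46.95 FPKM). Its fold interval began at 1.33, but its Poisson intervals overlapped, and it had entered only through the ΔM library. A count of 0 for Mir99a in WT allows up to 117 FPKM.

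For microRNAs of the response to LPS, a list of 16 table rows, 9 were members: 7 were higher in ΔM, 6 of them at least 2-fold, and 2 were lower, 1 of them at least 2-fold, beside 46.8% and 25.4% of all members and 26.5% and 17.6% of other genes of the same lengths. Of those at least 2-fold apart, Mir99b, Mir146 and Mir132 were at 0 in 1 library and had to differ. Their median log2 ratio was 1.38 (0.56 over all members, 0.03 over all genes). Mir155, induced by Toll-like receptors, was at 154 FPKM (WT) and 401 FPKM (ΔM). Its position (chr16:84714385-84714449, plus strand) is in an exon of the long Mir155 row, which was at 7.03 and 5.16 FPKM, so the hairpin and its transcript stood on opposite sides. Neither hairpin value was a whole number of fragments (3.94 and 9.10), and the interval of the hairpin's fold, 0.71 to 11.3, includes 1. Mir125a was at 155 and 433 FPKM, and its fold had an interval of 1.25 to 6.36, though its Poisson intervals overlapped. Its fragments were not whole either (9.77 and 24.07). It shares exon bases with Ncrna00085, which was at 8.81 and 7.19 FPKM. Mir125b-2 was at 58.0 and 361 FPKM and Mir125b-1 at 44.2 and 25.0 FPKM. Mir146, which holds the miR-146a sequence and feeds back on Traf6 and Irak1, was at 0 and 44.1 FPKM, from 0 and 1 fragment. Mir132 was at 8.94 and 0 FPKM, from 1 and 0. The 7 rows at 0 in both libraries included Mir21, Mir146b, Mir147, Mir187 and Mir212. For Mir21 a count of 0 allows up to 36.7 FPKM (WT) and 41.5 FPKM (ΔM) at the floor of 3 fragments.

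For microRNAs of myeloid and other blood cells, 13 of 26 rows were members, 7 higher and 6 lower in ΔM, with a median log2 ratio of 0.17. Both lists were chosen with values of these data known. Mir142, expressed throughout blood cells, was at 82.2 and 46.5 FPKM, from 2 and 1 fragments. Mir223, a microRNA of granulocytes and monocytes, amounted to 0.08 and 1.31 fragments in an exon of F630028O10Rik. Mir16-1 was at 35.4 and 120 FPKM, from 3 and 9 fragments, in an intron of Dleu2. Mir15b was at 69.2 and 33.6 FPKM, from 7 and 3. The values of Mir16-1 and Mir15b thus lay on opposite sides although both carry the seed AGCAGCA. Both fold intervals include 1 (0.85 to 19.5 and 0.08 to 2.12). Over the 3 members with that seed 15 fragments stood against 15. Mir29a was at 28.4 and 0 FPKM, Mir17 at 0 and 18.7, Mir92b at 0 and 19.5, and Mir92-2 at 38.0 and 43.0. Mir22, Mir511, Mir15a, Mir503 and Mir20a were among the 13 rows at 0 in both. All 23 rows of microRNAs of other cell types were at 0 in both libraries. Among these were the liver's Mir122a, the lymphocyte's Mir150, the endothelial Mir126 and the erythroid Mir451. Of all 663 rows with a microRNA symbol, 535 were also at 0 in both, so these zeros say little about the cell type. At the length of Mir150 a count of 0 allows up to 117 FPKM in WT at the floor of 3 fragments.

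Of the 124 hairpin genes 66 lay inside a longer gene row annotated on the same strand, and 58 lay in none. Of the 66, 49 were in an intron, 10 in an exon and 7 across both. Rows without an annotated strand could not be hosts, and 37039 of the 37451 genes were in the annotation. Mir30d was therefore among the 58 although it lay inside the long row of its name. A total of 46 had a host at a mean of at least 1 FPKM, in 41 hosts. No host differed by 2-fold, with host log2 ratios from -0.56 to 0.64, whereas 34 of the 46 hairpins did (73.9%), 22 upward and 12 downward. By the same rule 72.2% of all members, 44.1% of other genes of the same lengths and 2.48% of genes longer than 300 nt differed in either direction, so each side of these pairs stood near the share of its own length class or of the members. Hairpin and host had the same sign in 23 of 46 pairs. Across these 46 pairs of genes, which share the 2 libraries, Spearman's rho was -0.03 and Pearson's r -0.05. Of the 12 pairs whose hairpin had at least 10 fragments, 9 hairpins differed by at least 2-fold and 5 pairs had the same sign. Mir342 was at 163 FPKM (WT) and 335 FPKM (ΔM), from 17 and 31 fragments (fold 2.06, 1.11 to 3.97), though its Poisson intervals overlapped. It lay in an intron of Evl, an actin regulator at 91.0 and 98.6 FPKM. Mir23b and Mir27b share the host 2010111I01Rik, which was at 6.67 and 7.64 FPKM. Mir652 was at 69.2 and 168 FPKM in Tmem164, at 15.9 and 15.6 FPKM. Mir26b, with 6 and 6 fragments, lay in the phosphatase gene Ctdsp1 at 122 and 134 FPKM. The level of the hairpin, averaged over both libraries, was above that of its host in 35 of the 46 pairs, on an FPKM scale that gives much weight to each fragment of a short gene.

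**Figure D4:**
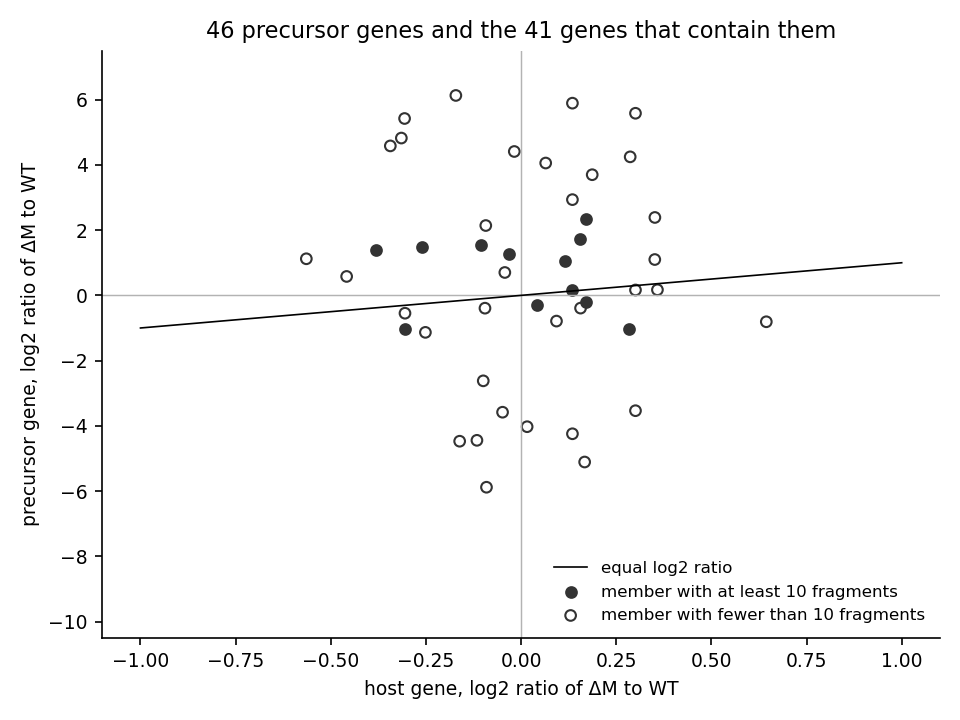
Log2 ratio of ΔM to WT of 46 hairpin genes (y axis) against that of the gene that contains each (x axis, 41 genes), with the line of equal ratios. Filled points are hairpins with at least 10 fragments (12) and open points those with fewer. Hosts span -0.56 to 0.64, while the hairpins lie on both sides of 0 well beyond that span.

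Among the genes that make and use microRNAs, 1 differed by at least 2-fold. Of 21 rows in a list of biogenesis and effector genes, 14 reached 1 FPKM, with 7 on the higher side and 7 on the lower side in ΔM and a median log2 ratio of 0.03. The 7 others were between 0.01 and 0.91 FPKM. Drosha, the nuclear ribonuclease, was at 1.74 and 2.26 FPKM, Xpo5, the export receptor, at 4.33 and 3.72, and Dicer1, the cytoplasmic ribonuclease, at 2.92 and 2.40. Ran, the GTPase of export, was at 83.8 and 83.5 FPKM. Of the Argonaute genes, Eif2c3 was at 21.0 and 13.4 FPKM, a log2 ratio of -0.60. Dgcr8, the partner of Drosha, was at 7.19 FPKM (WT) and 1.14 FPKM (ΔM), a log2 ratio of -1.94, and was the only one at least 2-fold apart. The annotation gives Dgcr8 a transcript of 98 nt, at which 1 fragment is worth 9.89 FPKM in WT, more than the whole value of the gene, and the part of this transcript in the difference was not tested.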

How the data were processed

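RNA-seq of LPS-stimulated BMDMs (1 WT and 1 ΔM library) was read from the deposited table of FPKM per gene. The authors trimmed adaptors with Cutadapt, used Segemehl to map the read pairs to mm9, retained reads with a unique position and computed FPKM with Cufflinks (named also in the submitters' processing notes) on ENSEMBL exons. FPKM divides fragments by length and depth, so short genes gain high values from few fragments. The strand setting of the counting is not given in the sources used here, so antisense reads cannot be told apart.

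The members and lists were chosen with earlier results of these data known. Ratios are log2((ΔM FPKM + 1)/(WT FPKM + 1)), and a gene was called at an absolute value of at least 1. With 1 library per genotype no test was run. The FPKM of 1 fragment at each length was the largest step of which low FPKMs of short genes were whole multiples, taken from a curve over lengths where the exact length gave none, a choice made after the values were seen. Fragment numbers were given 95% Poisson intervals, and folds exact binomial intervals of the split of fragments. The step procedure was also run on simulated whole fragments built with the steps found here. That run checks the code and says nothing of fragments divided between overlapping genes. A host was the shortest row over 300 nt on the same strand that contains the member (GENCODE M1, NCBIM37, same build as mm9). Rows outside that annotation had no strand and could not be hosts. Members named were the 10 highest, the 6 largest and 6 smallest ratios, 5 listed at 0 in each library, the 3 microRNA lists and the 3 genes on each side of the minimum. The let-7 genes, Mir27b, Mir342, Mir652, Mir26b, Mir501 and the clusters were named after their values were seen. Python 3 with pandas, scipy, pysam and matplotlib was used. One marker gene of the list is not reported here.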

Additional observations from a re-analysis of the deposited data

How the results depend on the processing

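No paired analysis was possible because each genotype had 1 library, which also means that none could be omitted in turn. Of 38 recomputed summary values 29 stayed on the same side and near the reported value. Ratios of 66 single named genes kept their sign under pseudocounts of 0.1 and 10 FPKM, which cannot change a sign. Centring on long genes, whose median log2 ratio was -0.01, left little room for a change of sign, and none occurred. The size of these 66 ratios moved with the pseudocount by up to 3.31 on the log2 scale (Mir99a). With 10 FPKM, 9 of 44 were no longer 2-fold apart, among them Mir132, Mir223 and Mir15b. The number of members at least 2-fold apart was 91 of 126. It was 60 of 92 with a mean of at least 10 FPKM and 19 of 35 among genes with at least 10 fragments. Fewer genes were counted, and the share that differed fell as well. The median log2 ratio was 0.00 with genes listed at 0 set to the floor, a rule that gives most of those genes a ratio of 0. The ratio of summed FPKM was 0.66 with all members, 0.85 without Mir5105, and reversed to 1.45 without the 5 highest members, which by construction removes most of the sum. With hosts of at least 10 FPKM there were 19 pairs, of which 15 hairpins were at least 2-fold apart and 13 pairs had the same sign. When the step was taken from genes within 2 nt of the length, 3 hairpin genes were whole in both libraries in place of 109, since mixed lengths have no common step. The choices on the floor, on fragments and on the 5 highest members were added after the data were seen. Depth limits hairpins of few fragments: 43 of 124 rest on at most 1, rounded.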
